A study of Mus musculus with 18 samples.

Results

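Nkx2-1, Lhx6, Lhx8, Sst, Npy, Cxcr4, Maf and Erbb4 are genes of the medial ganglionic eminence, a zone below the embryonic cortex, and of the inhibitory interneurons that leave it. The 8 genes were matched by symbol to the Ensembl identifiers of the RNA count files, which list 47729 genes, and no threshold on a measured value was applied to them. They and the gene lists below were, however, chosen with earlier results of these data known. Counts of calls among them therefore describe these genes and are not independent evidence. H3K9ac peaks were then taken over each gene body and 20 kb on each side (genome build mm10). RNA and chromatin came from whole cortex, as bulk tissue, of mouse embryos at day E15.5. All embryos were BAF155 cKO, a conditional knockout of a core subunit of the BAF chromatin remodelling complex. One group had received TSA (trichostatin A, an inhibitor of histone deacetylases) and the other Vehicle, with 4 RNA and 4 H3K9ac libraries each. The knockout was carried by both groups, and samples without it were not analysed here. The sources used here do not give the Cre driver, the TSA dose, or whether libraries came from separate embryos. The p-values below therefore reflect the spread among these libraries alone, which may be technical.

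In the medial ganglionic eminence the homeodomain factor NKX2-1 sets the identity of progenitors, and it switches on the LIM-homeodomain genes Lhx6 and Lhx8. Neurons that keep Lhx6 migrate tangentially into the cortex and become somatostatin and parvalbumin interneurons, whereas Lhx8 marks neurons that stay in the basal forebrain, cholinergic ones among them. On their way the interneurons read chemokine and neuregulin signals through the receptors CXCR4 and ERBB4. MAF promotes their later differentiation, and Sst and Npy encode neuropeptides that mark mature subtypes. H3K9ac, acetylation of histone H3 at lysine 9, is found at active promoters and enhancers.

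Promoter sequences (RefSeq, assembly GRCm38.p6, 250 bases before to 50 after the annotated start) were matched for 7 of the 8 genes, not for Maf. The promoters shown belong to the genes that rose (Nkx2-1, Lhx8 and the third annotated start of Lhx6), to Cxcr4, which fell, and to Sst, whose promoter holds a cyclic AMP response element. All are on the minus strand and are printed 5′ to 3′ along it. Capitals mark matches, on either strand, to the motifs CRE (TGACGTCA), TATA box (TATAAA) and CCAAT box (CCAAT).
Nkx2-1, chr12:56536859-56537158: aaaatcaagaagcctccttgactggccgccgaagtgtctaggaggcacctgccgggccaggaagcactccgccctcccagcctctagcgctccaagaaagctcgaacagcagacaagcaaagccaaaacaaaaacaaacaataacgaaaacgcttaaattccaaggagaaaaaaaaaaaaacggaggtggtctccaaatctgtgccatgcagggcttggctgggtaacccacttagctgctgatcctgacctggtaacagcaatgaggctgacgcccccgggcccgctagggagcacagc
Lhx8, chr3:154330511-154330810: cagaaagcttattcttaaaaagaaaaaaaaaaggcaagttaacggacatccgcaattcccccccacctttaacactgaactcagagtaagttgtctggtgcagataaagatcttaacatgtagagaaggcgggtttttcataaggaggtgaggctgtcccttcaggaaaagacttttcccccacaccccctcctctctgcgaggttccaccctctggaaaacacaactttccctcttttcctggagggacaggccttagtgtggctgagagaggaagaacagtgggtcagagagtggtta
Lhx6 at the third start, chr2:36104011-36104310: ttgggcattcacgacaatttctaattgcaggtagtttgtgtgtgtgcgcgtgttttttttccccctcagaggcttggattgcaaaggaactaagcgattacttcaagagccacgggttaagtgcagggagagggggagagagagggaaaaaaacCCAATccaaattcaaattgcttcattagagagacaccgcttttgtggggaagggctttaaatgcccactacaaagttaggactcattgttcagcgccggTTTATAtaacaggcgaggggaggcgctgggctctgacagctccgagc
Cxcr4, chr1:128592250-128592549: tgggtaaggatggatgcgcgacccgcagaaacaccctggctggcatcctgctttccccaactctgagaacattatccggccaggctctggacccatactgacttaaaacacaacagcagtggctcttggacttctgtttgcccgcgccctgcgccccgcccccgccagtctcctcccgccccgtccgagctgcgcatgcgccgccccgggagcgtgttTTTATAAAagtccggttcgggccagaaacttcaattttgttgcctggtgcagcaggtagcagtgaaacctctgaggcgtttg
Sst, chr16:23890795-23891094: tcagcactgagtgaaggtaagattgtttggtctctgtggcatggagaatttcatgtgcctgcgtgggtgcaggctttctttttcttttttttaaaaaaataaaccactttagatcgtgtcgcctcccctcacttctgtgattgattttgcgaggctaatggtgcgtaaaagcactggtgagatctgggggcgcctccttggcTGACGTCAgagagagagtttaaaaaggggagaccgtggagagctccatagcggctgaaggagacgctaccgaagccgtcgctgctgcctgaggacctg
The CRE in the Sst promoter lay 48 to 41 bases before the start, and TGACGTCA occurred in 1.79% of 32851 promoters. TATAAA was found in the Cxcr4 promoter on both strands, in matches that overlap (30 to 25 bases before the start on the printed strand). At the third Lhx6 start TATAAA lay 3 to 8 bases after the start, on the strand opposite to that printed. It occurred in 13.6% of promoters. CCAAT was found at the first and the third of the Lhx6 starts and at Npy, and in 37.4% of promoters. The LIM-homeodomain core TAATTA (5.29% of promoters) and the NKX2-1 core CAAGTG (13.6%) did not occur in these windows. CpG dinucleotides numbered 12 at Nkx2-1, 4 at Lhx8, 13 at Sst, 17 at Erbb4, 20 at Cxcr4, 24 at Npy and 11 to 17 at the Lhx6 starts, against a median of 7 over all promoters. Of these windows, that of Lhx8 was the poorest in CpG and that of Npy the richest.

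RNA libraries held 6733415 to 20400727 counts in TSA and 12200426 to 15600340 in Vehicle, TSA 1 being the shallowest. Smarcc1, which encodes BAF155, averaged 132 ± 10.6 CPM in TSA and 136 ± 10.7 CPM in Vehicle (SD, n = 4 each; CPM is counts scaled to a common library total), and with the knockout in both groups and counts over the whole gene this does not check the deletion. Xist, the RNA of the inactive X chromosome, was at 0.305 to 1.47 CPM in TSA 1, 2 and 3, at 2327 CPM in TSA 4 and at 1768 to 3118 CPM in Vehicle. The summed Y-linked genes Ddx3y, Eif2s3y, Kdm5d and Uty had 237 to 267 CPM in TSA 1, 2 and 3, 0.938 CPM in TSA 4 and at most 5.22 CPM in Vehicle. TSA 4 is thus the only TSA library with the Xist status of the Vehicle libraries, and apart from it treatment and sex cannot be told apart. Lane numbers given with the deposited files put TSA 1, TSA 2 and Vehicle 1 in lane 1, TSA 3 and Vehicle 2 in lane 2, and TSA 4, Vehicle 3 and Vehicle 4 in lane 3.

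The 8 genes moved in opposite directions. The transcription factor genes Nkx2-1, Lhx8 and Lhx6 were higher in TSA, the receptor genes Cxcr4 and Erbb4 were lower, and Sst, Npy and Maf did not pass the test. All 8 passed the filter on low counts. By edgeR's quasi-likelihood test at a Benjamini-Hochberg adjusted p below 0.05, 3 of the 8 rose, where 15.4% of 15000 tested genes rose, and 2 fell, where 17.6% of tested genes fell. The TSA and Vehicle libraries did not overlap for 5 of the 8, against 32.3% of all tested genes. The median log2 fold change (TSA minus Vehicle) was −0.32 over the 8 genes and −0.01 over all tested genes. In whole tissue, fewer cells of a type and less RNA per cell cannot be told apart.

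**Figure D1:**
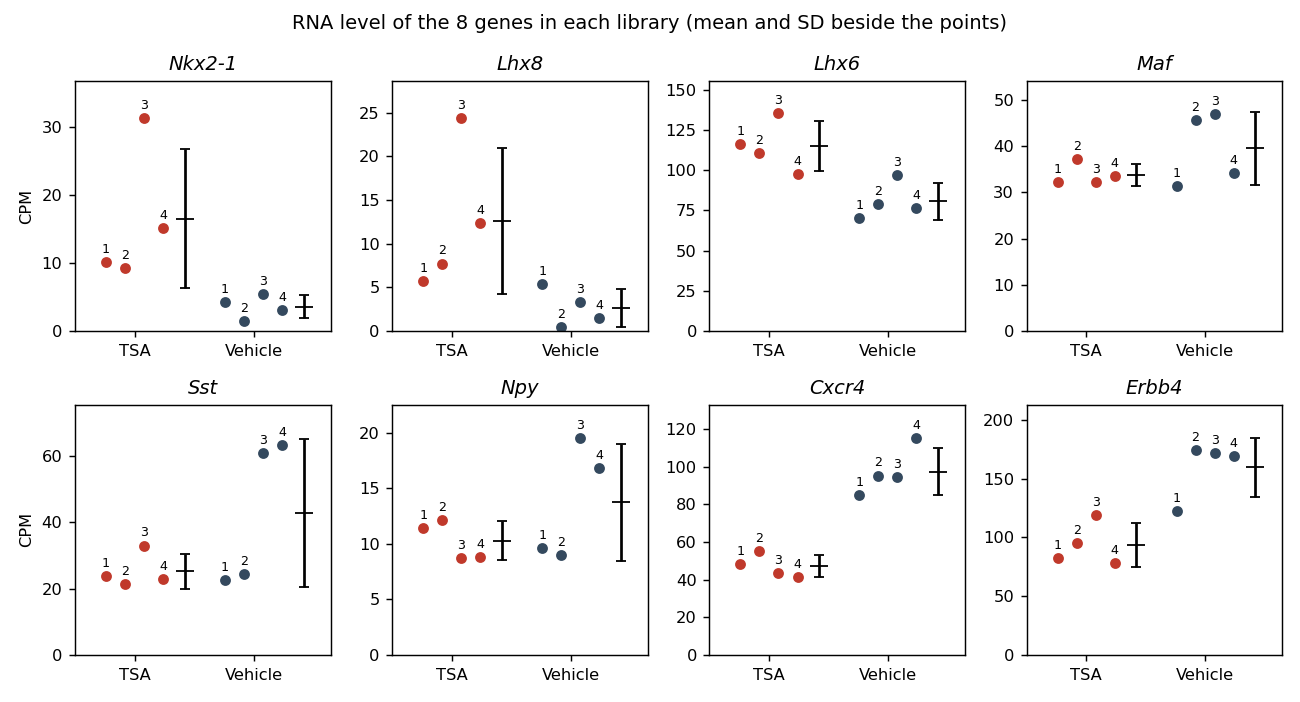
RNA level in CPM (vertical axis, linear, from 0) of the 8 genes in each library, numbered 1 to 4 within TSA (left, red) and Vehicle (right, dark); bars give the mean and SD of 4 libraries. The TSA libraries lie above all Vehicle libraries for Nkx2-1, Lhx8 and Lhx6 and below them for Cxcr4 and Erbb4, and TSA 3 is the highest library for Nkx2-1, Lhx8 and Lhx6.

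Nkx2-1 (ENSMUSG00000001496, chr12:56531935-56536908, minus strand), the factor that specifies medial eminence progenitors, had 10.2, 9.26, 31.3 and 15.1 CPM in TSA 1 to 4, against 4.26, 1.55, 5.44 and 3.17 CPM in Vehicle 1 to 4. Every TSA library was above every Vehicle library, and TSA 3 stood highest. Raw counts were 67, 164, 633 and 242 in TSA 1 to 4, against 62, 24, 79 and 40 in Vehicle 1 to 4. The mean was 16.5 ± 10.2 CPM in TSA and 3.60 ± 1.66 CPM in Vehicle (SD, n = 4 each), a ratio of 4.57 and a log2 fold change of 2.22 ± 0.45 (SE, edgeR adjusted p = 0.00353). Within lanes 1, 2 and 3 the log2 difference was 1.16, 4.22 and 1.83, positive in each. With Xist status as a covariate the log2 fold change was 2.07 and the call ended (edgeR adjusted p = 0.0604), as it did without Vehicle 1 and Vehicle 4, the libraries richest in mitochondrial counts (2.28, edgeR adjusted p = 0.0911). TSA 4 against the 4 Vehicle libraries, a contrast added after the data were seen that takes the lone library to vary like the others, gave 2.07 and passed (edgeR adjusted p = 0.0310).

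Lhx8 (ENSMUSG00000096225, chr3:154306288-154330560, minus strand), a LIM-homeodomain gene of basal forebrain neurons, had 5.79, 7.74, 24.3 and 12.4 CPM in TSA 1 to 4, against 5.36, 0.516, 3.31 and 1.5 CPM in Vehicle 1 to 4. The groups did not overlap, but TSA 1 and Vehicle 1 lay close together, and TSA 3 was again the highest library. Counts were low, 38 to 493 in TSA libraries and 8 to 78 in Vehicle libraries, with 8 in Vehicle 2. Lhx8 averaged 12.6 ± 8.33 CPM in TSA and 2.67 ± 2.13 CPM in Vehicle (SD, n = 4 each), with a log2 fold change of 2.27 ± 0.62 (SE, edgeR adjusted p = 0.0205). Within lanes 1, 2 and 3 the log2 difference was 0.31, 5.23 and 2.40. The call was the least stable of the 5: it passed in 9 of 17 other settings, and it ended with lane (log2 fold change 2.15, edgeR adjusted p = 0.105) or Xist status (2.21, 0.114) as a covariate and without Vehicle 2 (1.92, 0.0683), Vehicle 4 (2.09, 0.0717) or both Vehicle 1 and Vehicle 4 (2.79, 0.0845). The value stayed positive in all 17, between 1.72 and 2.87.

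Lhx6 (ENSMUSG00000026890, chr2:36081950-36105992, minus strand), which drives the migration and fate of medial eminence interneurons, had 116, 110, 135 and 97.6 CPM in TSA 1 to 4, against 70.4, 78.8, 97.2 and 76.4 CPM in Vehicle 1 to 4. TSA 4, the lowest TSA library, lay just above Vehicle 3, the highest Vehicle library. Lhx6 averaged 115 ± 15.7 CPM in TSA and 80.7 ± 11.5 CPM in Vehicle (SD, n = 4 each), a log2 fold change of 0.51 ± 0.12 (SE, edgeR adjusted p = 0.00420). The within-lane log2 differences were 0.68, 0.78 and 0.18, smallest in the lane of TSA 4. With Xist status as a covariate the log2 fold change was 0.27 and the call ended (edgeR adjusted p = 0.346), and TSA 4 against Vehicle gave 0.28 (edgeR adjusted p = 0.481).

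TSA 3 held the highest level of Nkx2-1, Lhx8 and Lhx6. Without it the log2 fold changes were 1.69, 1.72 and 0.42, and each still passed (edgeR adjusted p = 0.00192, 0.0461 and 0.0149). TSA 3 also stood highest in the list of genes of the hypothalamus and preoptic area, neighbouring regions that express Nkx2-1. The summed level of that list was 9.6, 2.54, 30.5 and 10.6 CPM in TSA 1 to 4, against 5.50, 14.2, 11.7 and 12.8 CPM in Vehicle 1 to 4. Of its 16 genes 6 were tested and 0 were called in either direction, with a median log2 fold change of −0.07. Its defining markers were Rax, at 0 in all 4 TSA libraries and at most 0.0645 CPM in Vehicle, and Otp, at 10.1 CPM in TSA 3, 0 to 2.63 CPM in the other TSA libraries and 0.0688 to 2.19 CPM in Vehicle. The part of these genes in the level of Nkx2-1 was not tested.

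Cxcr4 (ENSMUSG00000045382, chr1:128588199-128592299, minus strand), the receptor for the chemokine CXCL12 that keeps interneurons in their migratory streams, had 48.3, 55.1, 43.7 and 41.5 CPM in TSA 1 to 4, against 84.8, 95.4, 94.7 and 115 CPM in Vehicle 1 to 4. All TSA libraries were below all Vehicle libraries, with a wide gap. The mean was 47.2 ± 6.01 CPM in TSA and 97.5 ± 12.7 CPM in Vehicle (SD, n = 4 each). Cxcr4 fell by 1.05 ± 0.11 on the log2 scale (SE, edgeR adjusted p = 3.94e-05), and its adjusted p stayed below the threshold in all 17 other settings, with log2 fold changes between −1.23 and −0.96. Within lanes 1, 2 and 3 the log2 difference was −0.71, −1.12 and −1.33.

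Cxcr4 is also used by microglia and endothelial cells, so their markers are set beside it. Of 15 tested microglia and macrophage genes 5 fell, where 17.6% of all tested genes did, and 0 rose. Their median log2 fold change was −0.44. Their summed level was 54.5 to 68.7 CPM in TSA and 71.4 to 92.0 CPM in Vehicle. Those with the smallest p were Lyz2, a lysozyme gene (log2 fold change −1.70), Aif1, which encodes the marker IBA1 (−1.49), and Tyrobp, an adaptor of microglial receptors (−0.87). The defining receptors Cx3cr1 (0.14) and Csf1r (−0.12) did not pass (edgeR adjusted p = 0.704 and 0.518). Among 11 endothelial genes 2 fell, near the 17.6% of all tested genes: the tight junction gene Cldn5 (−0.71) and the adhesion gene Esam (−0.49), and Pecam1 (−0.44) and Cdh5 (−0.23) did not pass (edgeR adjusted p = 0.126 and 0.389). The summed endothelial level was 228 to 265 CPM in TSA and 212 to 327 CPM in Vehicle. With Xist status as a covariate, which also lowered the number of calls among all tested genes, 0 microglial and 0 endothelial genes fell. Without Vehicle 1 and Vehicle 4, 3 microglial and 8 endothelial genes fell. Leaving out 1 library each gave 2 to 5 microglial falls, with 2 without Vehicle 4 and 3 without TSA 1 or Vehicle 3, and 2 to 4 endothelial falls, with 4 without Vehicle 1. The part of either cell type in the fall of Cxcr4 was not tested.

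Erbb4 (ENSMUSG00000062209, chr1:68031884-69108576, minus strand), the neuregulin receptor of migrating interneurons, had 82.5, 95.2, 119 and 78.0 CPM in TSA 1 to 4, against 123, 175, 172 and 170 CPM in Vehicle 1 to 4. TSA 3 and Vehicle 1 came close, and the other libraries were well apart. The mean was 93.7 ± 18.5 CPM in TSA and 160 ± 25.0 CPM in Vehicle (SD, n = 4 each), a log2 fold change of −0.77 ± 0.14 (SE, edgeR adjusted p = 0.00112). Like that of Cxcr4, this call held in all 17 other settings (−1.03 to −0.68), and within lanes 1, 2 and 3 the log2 difference was −0.47, −0.55 and −1.13.

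**Figure D2:**
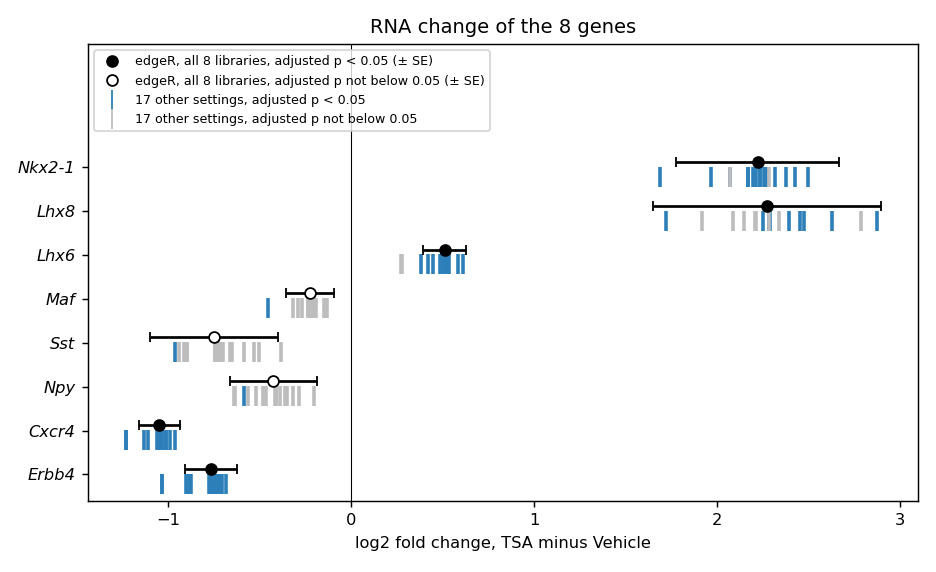
Log2 fold change in RNA, TSA minus Vehicle (horizontal axis), of the 8 genes. Circles with bars give the fit to all 8 libraries with its SE, filled where the edgeR adjusted p was below 0.05, and ticks give 17 other settings, blue where the adjusted p was below 0.05 and grey where it was not. All ticks of Cxcr4 and Erbb4 are blue, whereas Nkx2-1 and Lhx6 each have 15 blue ticks, Lhx8 has 9, and Sst, Npy and Maf have 1 each.

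The 3 genes that did not pass encode a differentiation factor and the neuropeptides. Maf (ENSMUSG00000055435, chr8:115703253-115706894), a basic leucine zipper factor of somatostatin interneurons, had 32.3, 37.3, 32.2 and 33.6 CPM in TSA 1 to 4, against 31.4, 45.6, 47.0 and 34.1 CPM in Vehicle 1 to 4. The TSA libraries lay close together and within the spread of the Vehicle libraries. The log2 fold change of Maf was −0.22 ± 0.13 (SE, edgeR adjusted p = 0.210), and without Vehicle 1 and Vehicle 4, whose mitochondrial counts were the highest (2.86% and 3.36%, against 1.6% and 2.0% in the other Vehicle libraries and 1.48% to 1.71% in TSA), it was −0.45 and passed (edgeR adjusted p = 0.00514).

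Sst (ENSMUSG00000004366, chr16:23889573-23891342, minus strand), which encodes the peptide somatostatin, had 23.9, 21.3, 33.0 and 22.9 CPM in TSA 1 to 4, against 22.6, 24.4, 60.8 and 63.3 CPM in Vehicle 1 to 4. Vehicle 3 and Vehicle 4 were high, and Vehicle 1 and Vehicle 2 lay among the TSA libraries. Sst had a log2 fold change of −0.75 ± 0.35 (SE, edgeR adjusted p = 0.135). Npy (ENSMUSG00000029819, chr6:49822710-49829507, plus strand), which encodes neuropeptide Y, had 11.4, 12.1, 8.74 and 8.82 CPM in TSA 1 to 4, against 9.63, 8.96, 19.6 and 16.9 CPM in Vehicle 1 to 4. It showed the same split, with Vehicle 3 and Vehicle 4 high and the rest together, and a log2 fold change of −0.43 ± 0.24 (SE, edgeR adjusted p = 0.190). Vehicle 3, Vehicle 4 and TSA 4 share lane 3, and within that lane the log2 difference was −1.43 for Sst and −1.03 for Npy, whereas in lanes 1 and 2 it was −0.00 and 0.43 for Sst and 0.29 and −0.04 for Npy. Sst passed without Vehicle 1 (−0.96, edgeR adjusted p = 0.0298) and Npy without Vehicle 2 (−0.59, edgeR adjusted p = 0.0477).

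The striatal list had its highest sum in the same lane. Its summed level was 656, 751, 642 and 782 CPM in TSA 1 to 4, against 615, 825, 1161 and 827 CPM in Vehicle 1 to 4. Vehicle 3 was the highest library. Of 15 tested striatal genes 10 fell, where 17.6% of all tested genes did, and 1 rose, where 15.4% did. The median log2 fold change of the list was −1.17. The falls numbered 6 without TSA 3, without Vehicle 4 or with no filter. They numbered 0 when Xist status entered as a covariate, a fit with fewer calls among all tested genes as well. Foxp2, a transcription factor gene (−1.09), Penk, the enkephalin precursor gene (−2.05), and Ikzf1, a zinc finger factor gene (−2.54), had the smallest p among those that fell, and Ppp1r1b, which encodes DARPP-32, rose (0.91). Penk had 1.98, 1.19, 1.88 and 1.44 CPM in TSA 1 to 4, against 2.82, 4.25, 9.99 and 9.34 CPM in Vehicle 1 to 4, so it too was highest in Vehicle 3 and Vehicle 4. Of the defining dopamine receptor genes, Drd2 fell (−1.17, edgeR adjusted p = 0.0112) and Drd1 had −0.27 (edgeR adjusted p = 0.335). The part of striatal tissue in the levels of Sst and Npy was not tested.

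Genes with the profile most like that of each member, by the root mean square difference of centred log2 CPM over the 8 libraries, were listed with the 3 nearest of all tested genes. For Nkx2-1 they were Gbx1 (0.25), a homeobox gene, the long noncoding RNA AI606473 (0.38) and Vwa5b1 (0.48), where the median gene was at 1.26. Lhx8 was nearest to AI606473 (0.44), Nkx2-1 (0.49) and Vwa5b1 (0.50), with the median gene at 1.56, so these profiles were close to each other. Gbx1 had 4.57, 3.56, 8.25 and 4.94 CPM in TSA 1 to 4, against 1.31, 0.387, 1.31 and 1.03 CPM in Vehicle 1 to 4, a log2 fold change of 2.42 ± 0.35 (SE, edgeR adjusted p = 0.000223). Lhx6 was nearest to Sema6a, a semaphorin gene, Mast4 and Pgm1 (0.09 each). Cxcr4 was nearest to Pcsk1, which encodes a prohormone convertase, the proteasome gene Psma6 and Nip7 (0.12 to 0.13). Erbb4 was nearest to Nrxn3, the neurexin 3 gene (0.10), Tmed7 (0.11) and Zfp119b (0.12). The nearest genes of Sst were Fxyd7, Cpne8 and Gng4, those of Npy were Ramp3, Pvt1 and Vav3, and those of Maf were Pcdhb19, Rnf180 and Exo5.

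Within 20 kb of the 8 genes, 2 other genes could be tested. AI606473, which lies before the Lhx8 start at chr3:154330821-154334687, had 5.33, 4.18, 11.2 and 4.13 CPM in TSA 1 to 4, against 1.72, 0.258, 1.86 and 0.792 CPM in Vehicle 1 to 4. Every TSA library was above every Vehicle library, and TSA 3 was the highest, as for Lhx8. AI606473 rose by 2.43 ± 0.47 (log2, SE, edgeR adjusted p = 0.00183). The RNA kit does not mark strand, so reads that run from one of these genes into the other cannot be told apart. Rbm18, an RNA-binding protein gene beside Lhx6, went the other way from Lhx6, with a log2 fold change of −0.39 ± 0.08 (SE, edgeR adjusted p = 0.00300). Gm26973, a long noncoding RNA gene next to Nkx2-1, was under the filter.

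The ligands and partner receptors of the 8 genes came from a list of 31 tested migration and neuropeptide genes. In this list 9 rose and 3 fell, where 15.4% and 17.6% of all tested genes did. The median log2 fold change was 0.21. Cxcl12, the ligand of CXCR4, had 29.6, 31.5, 32.3 and 28.8 CPM in TSA 1 to 4, against 13.9, 13.0, 16.9 and 13.1 CPM in Vehicle 1 to 4, and rose by 1.11 ± 0.12 (log2, SE, edgeR adjusted p = 3.23e-05). Ackr3, the atypical CXCL12 receptor, averaged 36.5 ± 4.19 CPM in TSA and 65.5 ± 12.4 CPM in Vehicle (SD, n = 4 each), a log2 fold change of −0.84 ± 0.13 (SE, edgeR adjusted p = 0.000339). Both receptors of CXCL12 were thus lower and the ligand higher in TSA. The other genes that fell were Egfr, a receptor related to ERBB4 (−0.85), and Epha4, an ephrin receptor gene (−0.35).

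On the neuregulin side, named after their values were seen, Nrg1 (0.40), Nrg2 (0.81) and Nrg3 (0.42), which encode ligands of the ERBB receptors, rose (edgeR adjusted p = 0.00894, 0.0474 and 0.0145), and Nrg4 (−0.06) and the co-receptor gene Erbb2 (0.30) did not pass (edgeR adjusted p = 0.893 and 0.0943). Of the somatostatin receptor genes, Sstr3 averaged 12 ± 1.66 CPM in TSA and 4.51 ± 1.39 CPM in Vehicle (SD, n = 4 each), a rise of 1.39 ± 0.21 (log2, SE, edgeR adjusted p = 0.000250). Sstr2 also rose (0.51, edgeR adjusted p = 0.00146), while Sstr1 (0.05) did not pass (edgeR adjusted p = 0.901). The neuropeptide Y receptor genes Npy1r (−0.55) and Npy2r (−0.40) did not pass (edgeR adjusted p = 0.0889 and 0.193). Sstr4 was under the filter on low counts and was not tested. Of the somatostatin receptor genes that were tested, Sstr2 and Sstr3 rose and Sstr1 did not pass, where 15.4% of all tested genes rose.

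**Figure D3:**
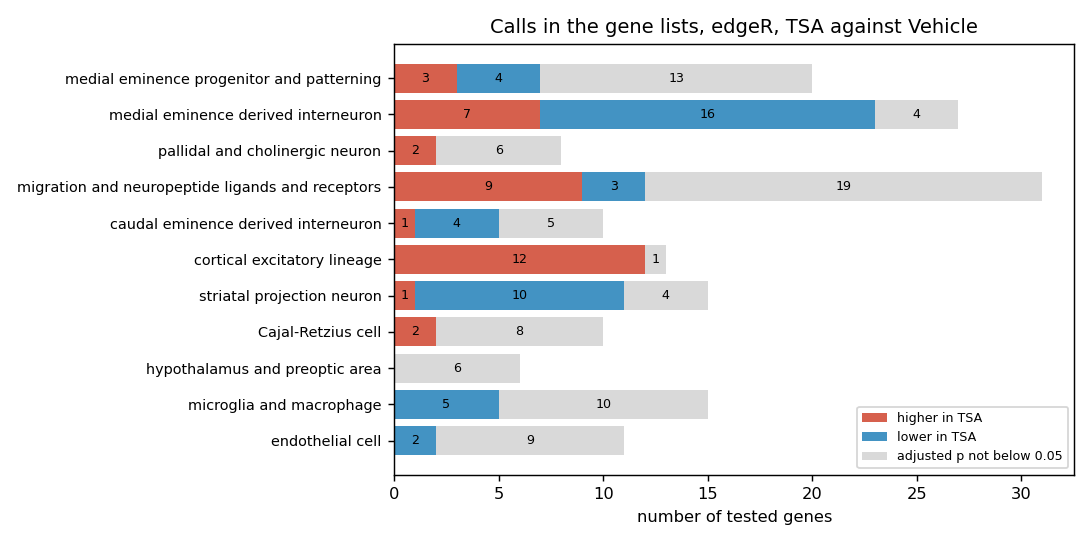
Number of tested genes in each of 11 gene lists (horizontal axis) that were higher in TSA (red), lower in TSA (blue) or not past an edgeR adjusted p of 0.05 (grey). In the medial eminence derived interneuron list 7 rose and 16 fell of 27, and in the cortical excitatory list 12 rose and 0 fell of 13. Over all tested genes 15.4% rose and 17.6% fell.

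Other genes of the medial eminence and its progeny were called in both directions. In the list of progenitor and patterning genes 3 of 20 tested rose and 4 fell, near the 15.4% and 17.6% of all tested genes, with a median log2 fold change of 0.15. Among those that fell were homeobox genes of the whole ganglionic eminence: Dlx1, at 209 ± 35.3 CPM in TSA and 468 ± 36.5 CPM in Vehicle (−1.16 ± 0.12, edgeR adjusted p = 2.60e-05), Gsx2 (−2.18) and Dlx2 (−0.89). Those that rose included Gli2 (0.95) and Gli3 (0.93), genes of the Hedgehog pathway. Other genes of that pathway in the list, Gli1 (0.38), Ptch1 (0.28) and Smo (0.07), did not pass (edgeR adjusted p = 0.177, 0.0848 and 0.650). Shh, the Hedgehog ligand secreted in the medial eminence, had 0.610, 0.452, 2.37 and 1.38 CPM in TSA 1 to 4, against 0.344, 0.193, 1.38 and 0.712 CPM in Vehicle 1 to 4, and did not pass (log2 fold change 0.97 ± 0.59, edgeR adjusted p = 0.229). Shh, Dlx2, Gli1, Ptch1 and Smo were named after their values were seen. Without Vehicle 1, 6 genes of this list rose.

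Among medial eminence derived interneuron genes, 7 of 27 tested rose and 16 fell, where 15.4% and 17.6% of all tested genes did. The median log2 fold change of the list was −0.48. Dlx6os1, a long noncoding RNA of the Dlx5 and Dlx6 locus, averaged 84.3 ± 16.6 CPM in TSA and 348 ± 44.4 CPM in Vehicle (SD, n = 4 each), a log2 fold change of −2.04 ± 0.14 (SE, edgeR adjusted p = 7.40e-07). Sp9, a zinc finger factor of these neurons, had −1.32 ± 0.15 (edgeR adjusted p = 4.87e-05). Nos1, the neuronal nitric oxide synthase gene, went the other way, at 161 ± 18.8 CPM in TSA and 48.7 ± 15.8 CPM in Vehicle (1.72 ± 0.19, edgeR adjusted p = 8.81e-05), as did Cux2 (0.73) and Satb1 (0.43). Cux2 and Satb1 are also expressed by cortical excitatory neurons. The summed level of the interneuron list was 2159 to 2262 CPM in TSA and 2338 to 2661 CPM in Vehicle. With Xist status as a covariate 2 rose and 6 fell, in a fit that also called fewer of all tested genes.

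Basal forebrain and caudal eminence genes were compared in the same way. Of 8 tested pallidal and cholinergic genes 2 rose, Gbx1 and the neurotrophin receptor gene Ngfr (0.58), and 0 fell. Of all tested genes, 15.4% rose and 17.6% fell. The pallidal and cholinergic genes had a median log2 fold change of 0.20. Without TSA 3 or TSA 4, 1 of them fell. Their summed level was 216, 197, 375 and 286 CPM in TSA 1 to 4, against 276, 235, 225 and 242 CPM in Vehicle 1 to 4, highest in TSA 3 and overlapping between the groups. The defining cholinergic gene Chat was at 0 in TSA 1, Vehicle 2 and Vehicle 3 and at most 0.296 CPM elsewhere, under the filter. Of 10 caudal eminence interneuron genes 4 fell and 1 rose, against those same shares of all tested genes, with a median of −0.39. Adarb2 (−1.16 ± 0.14, edgeR adjusted p = 8.04e-05), Sp8 (−0.93), the serotonin receptor gene Htr3a (−0.95) and Calb2, which encodes calretinin (−0.72), fell, and the cannabinoid receptor gene Cnr1 (0.37) rose. Calb2 was named after its value was seen.

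Genes of other cortical cells were set beside these lists. Of 13 cortical excitatory lineage genes 12 rose, where 15.4% of all tested genes did, and 0 fell. Their median log2 fold change was 0.82, and their summed level was 3040 to 3552 CPM in TSA and 1591 to 2301 CPM in Vehicle. Eomes, Neurog2 and Tbr1, transcription factor genes of intermediate progenitors and glutamatergic neurons, had the smallest p, with log2 fold changes of 2.09, 1.76 and 0.90. Of 10 Cajal-Retzius genes 2 rose, Clstn2 (0.70) and Reln (0.44), near the 15.4% of all tested genes, and 0 fell, with a median of −0.08 and with the defining gene Trp73 at −0.23 (edgeR adjusted p = 0.0795). Without TSA 3, 2 Cajal-Retzius genes fell, and 1 fell without Vehicle 2 or Vehicle 3. With Xist status as a covariate 9 excitatory genes and 0 Cajal-Retzius genes rose, and 2 migration and neuropeptide genes rose. In that fit 2 caudal eminence and 2 progenitor and patterning genes fell. Calls among all tested genes were fewer in it too. The part of cell composition in the levels of the 8 genes was not tested.

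H3K9ac peak lists held 46714, 53285, 32248 and 61217 peaks in TSA 1 to 4, against 41987, 41331, 43645 and 22668 in Vehicle 1 to 4, on 11824246 to 24075842 tags. TSA 3 and Vehicle 4 had the shortest lists, so peak counts follow list length as well as the locus. Peaks were called on each library separately against a common input, and libraries were compared by the presence and extent of peaks. Over 21887 genes, the bases covered by peaks in the gene body and 20 kb on each side were higher on average in TSA for 63.8%, and the median difference was 113.25 bases. No test between 4 and 4 libraries can go below an exact permutation p of 0.0286.

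None of the 8 genes separated the groups by number of peaks or by covered bases, where 1.4% and 1.84% of all genes did. Nkx2-1 had 0 peaks in its window in all 8 libraries. Lhx8 had 1 peak in TSA 2, 163 bases long with its middle 1058 bases after the start, and 0 in the other 7 libraries. Of the 8 genes, those with the largest rises in RNA thus had almost no called H3K9ac in whole cortex. Among 1220 genes within 1.5-fold of the mean CPM of Nkx2-1, 4.59% had no peak within 1 kb of the start in any library, and 58.5% had one in all 8. Absence from a peak list says only that the signal stayed under the calling limit.

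**Figure D4:**
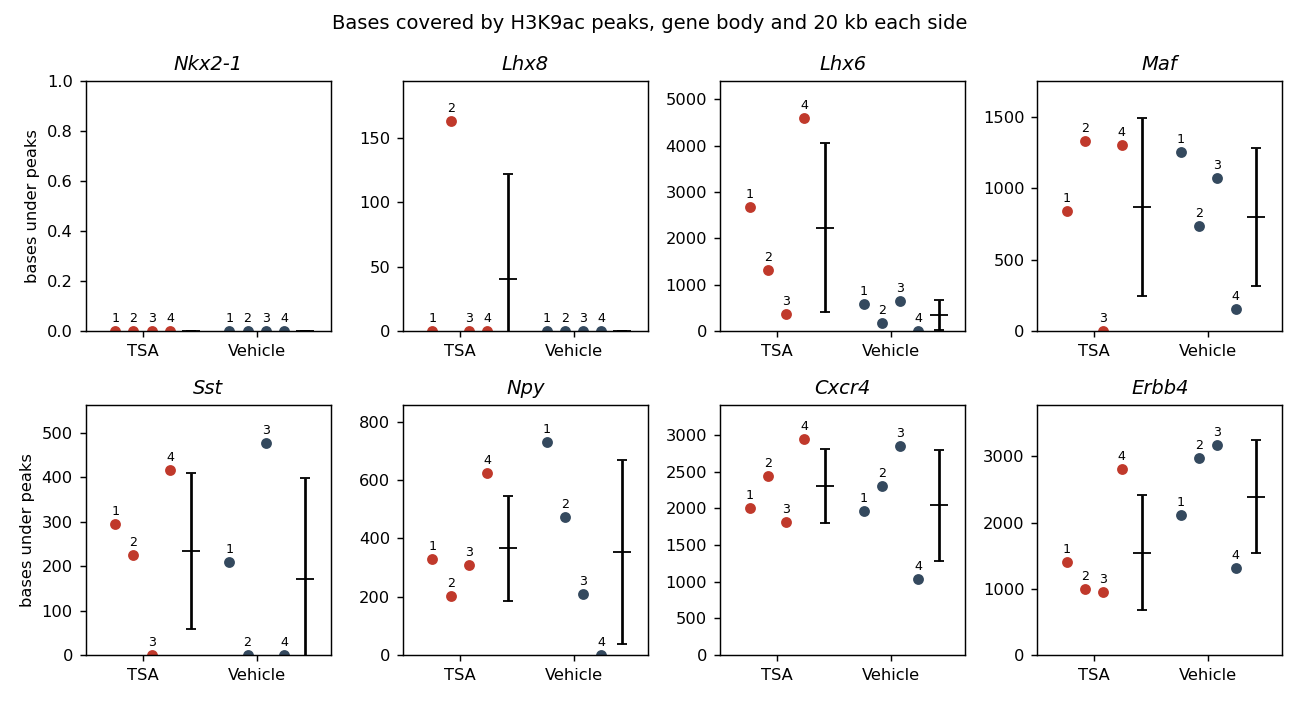
Bases covered by called H3K9ac peaks (vertical axis, linear, from 0) in the gene body and 20 kb on each side of the 8 genes, per library, numbered 1 to 4 within TSA (left, red) and Vehicle (right, dark), with the mean and SD of 4 libraries. Lhx6 is higher in TSA 1, TSA 2 and TSA 4 than in any Vehicle library while TSA 3 lies among them, and Nkx2-1 is at 0 in every library.

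Lhx6 had 8, 6, 2 and 8 peaks in TSA 1 to 4, against 3, 1, 2 and 0 in Vehicle 1 to 4. The covered bases were 2670, 1319, 364 and 4584 in TSA 1 to 4, against 586, 168, 652 and 0 in Vehicle 1 to 4. TSA 3 fell among the Vehicle libraries, and the other 3 TSA libraries were above them all. The mean was 2234 ± 1830 bases in TSA and 352 ± 318 bases in Vehicle (SD, n = 4 each), and the difference did not pass (two-sided exact permutation p = 0.0857). It was larger than that of 97.3% of all genes. Without TSA 3, the shortest TSA list, the difference was 2506 bases and the exact permutation p, two-sided, was 0.0286. That is the lowest p the remaining libraries can give. Because the library left out was the only TSA library that overlapped Vehicle, this p adds no support. The difference was also taken as a share of all bases covered in each library, an alternative added after the data were seen. It was 84.2 bases per Mb of covered sequence higher in TSA (exact permutation p = 0.0857). The same bases weigh more in a short list, so such a share still depends on list length.

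Lhx6 has 3 annotated starts, and 11 of its 30 peaks over the 8 libraries had their summit within 1 kb of one. The region chr2:36104476-36105635, at the first and second start, held a peak in all 4 TSA libraries and in Vehicle 1 and Vehicle 3. The region chr2:36102139-36104220, at the third start and into the gene, held one in TSA 1, TSA 2, TSA 4, Vehicle 1 and Vehicle 3. Peaks in the 300 bases of the third start printed above were called in 2 TSA libraries and 0 Vehicle libraries. At the same stretch of the first start they were called in 1 TSA and 1 Vehicle library, and at the second in 2 TSA and 1 Vehicle. Of 13 separate regions around Lhx6, 9 were called in TSA libraries alone, 8 of them in a single library, and 1 was called in a Vehicle library alone. Of 104737 merged regions genome-wide, 46.2% were called in TSA libraries alone and 19.0% in Vehicle libraries alone. Of all regions at the 8 genes, none was called in all libraries of one group and in 0 of the other, as were 0.218% of merged regions genome-wide.

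**Figure D5:**
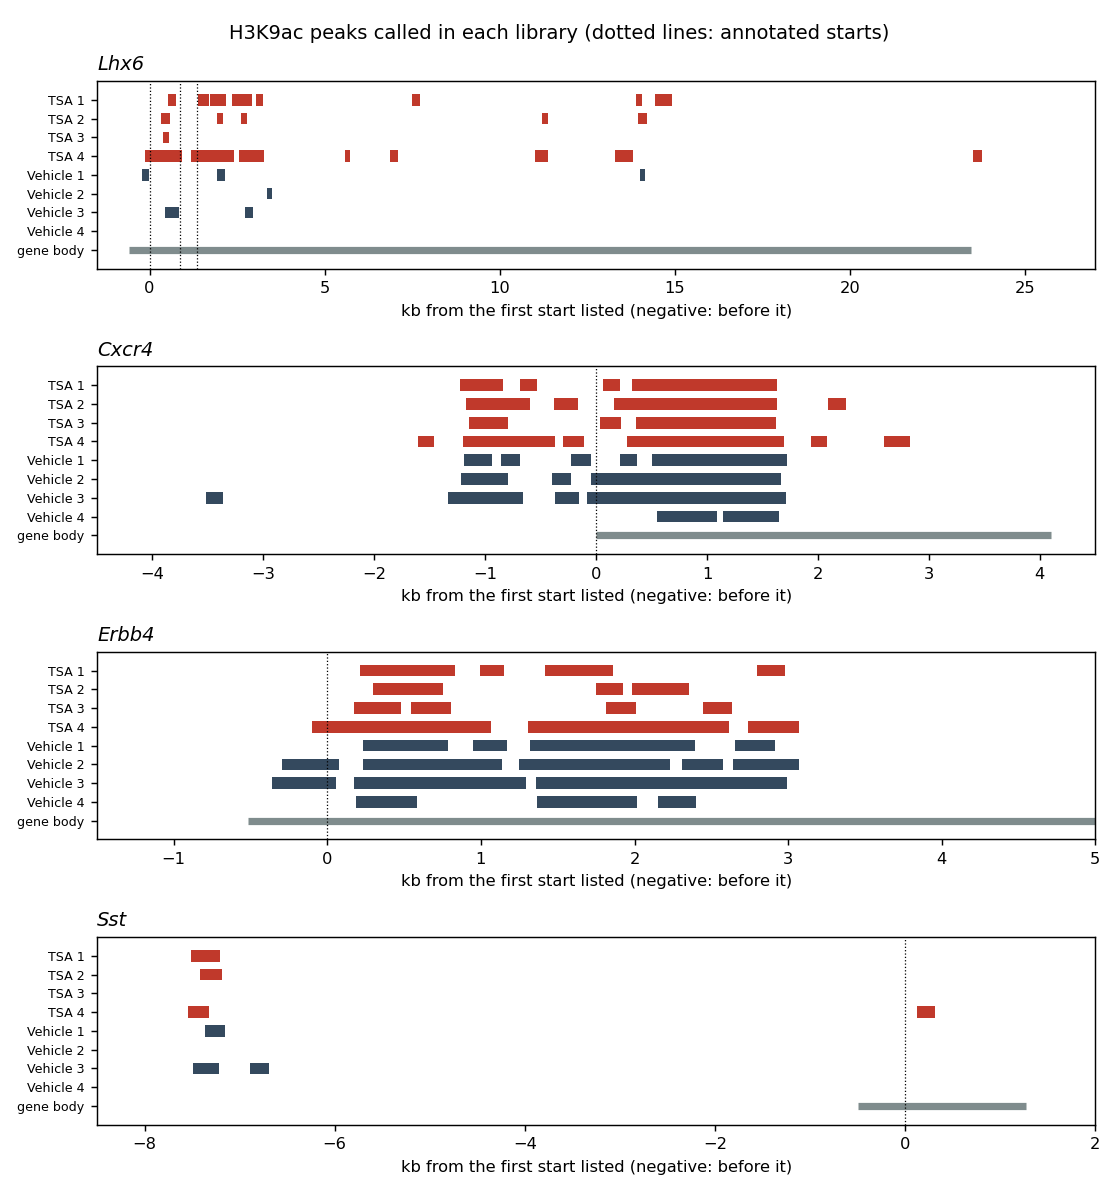
Position of called H3K9ac peaks in each library (rows, TSA above Vehicle) against the distance in kb from the first annotated start (horizontal axis) of Lhx6, Cxcr4, Erbb4 and Sst; grey bars mark the gene body, dotted lines the starts, and peaks outside the plotted stretch are left out. Cxcr4 and Erbb4 carry peaks just after the start in all 8 libraries, and the Sst peaks lie mostly about 7 kb before its start.

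Cxcr4 and Erbb4, whose RNA fell, carried a peak within 1 kb of the start in 4 of 4 TSA and 4 of 4 Vehicle libraries. At Cxcr4 overlapping peaks of the 8 libraries merged into the region chr1:128590582-128593636, 3055 bases long and spanning the start. Each library had peaks in part of it. In Vehicle 4 they lay after the start and did not reach it. A peak in the 300 promoter bases printed above was called in 3 TSA and 3 Vehicle libraries. The covered bases at Cxcr4 were 2003, 2441, 1813 and 2955 in TSA 1 to 4, against 1963, 2304, 2855 and 1043 in Vehicle 1 to 4. The groups overlapped, and the mean of 2303 ± 508 in TSA and 2041 ± 760 in Vehicle (SD, n = 4 each) did not differ past the threshold (exact permutation p = 0.6). Its direction turned without Vehicle 4, the shortest list (−71.0 bases).

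Erbb4 spans 1076693 bases, and its window held a single merged region, chr1:69104985-69108418 at the start. All 8 libraries had peaks in parts of it. The covered bases were 1407, 999, 954 and 2809 in TSA 1 to 4, against 2118, 2974, 3171 and 1307 in Vehicle 1 to 4. TSA 4, the longest list, and Vehicle 4, the shortest, lay on the side of the opposite group. The mean was 1542 ± 869 bases in TSA and 2393 ± 856 bases in Vehicle (SD, n = 4 each), which did not pass (exact permutation p = 0.2), although only 0.484% of genes had a lower difference. As a share of all covered bases in each library, an alternative added after the data were seen, the difference was −78.7 bases per Mb. On that measure every TSA library was below every Vehicle library (exact permutation p = 0.0286). That p is the lowest these libraries can give and was not adjusted over the 8 genes. How many of all genes separate the groups on this share was not computed, so the separation is a description only.

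The peptide genes and Maf had small regions with no difference past the threshold. Npy had a peak within 1 kb of its start in 4 of 4 TSA and 3 of 4 Vehicle libraries, in the region chr6:49822153-49823181. Sst had a start peak in TSA 4 alone, while the region chr16:23897997-23898388, with its middle at −7348 bases from the start, was called in TSA 1, TSA 2, TSA 4, Vehicle 1 and Vehicle 3. Maf had 4, 4, 0 and 3 peaks in TSA 1 to 4, against 4, 2, 4 and 1 in Vehicle 1 to 4, and TSA 3, a short list, had none. The regions chr8:115705542-115706097 and chr8:115706469-115707258, in and just outside the Maf gene body, were called in 6 and 7 of 8 libraries. Presence at a start did not pass at any of the 7 genes with an annotated start (two-sided Fisher's exact p of 0.429 at Lhx6 and 1.0 at the others), and 0.0686% of 17492 starts were called in all libraries of one group and none of the other.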

How the data were processed

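RNA was measured in 8 libraries and H3K9ac in 8, 4 TSA and 4 Vehicle each; the 2 inputs were not analysed here. The authors deposited raw counts per Ensembl gene (47224 of 47729 identifiers matched a symbol), and peak lists called per library. The build was mm10, per the submitters' processing notes; aligner and counter: not given in the sources used here. The RNA kit was unstranded, per the labels' protocols. Peaks were called with MACS2 2.1.0.20140616 at a q-value limit of 0.1 against the same input library of 18937878 tags, per the file headers. The deposited pileup signal, fold enrichment and −log10 p-value and q-value were only used to filter or rank peaks inside their own list.

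Counts were filtered with filterByExpr, scaled by TMM and tested with the quasi-likelihood test of edgeR 4.0.16 (R 4.3.3), robust and without covariates, with Benjamini-Hochberg adjustment over 15000 genes. SE is the log2 fold change divided by the square root of F. Chi-square per degree of freedom between replicates was 3.12 to 36.0, so no library counted as a repeat of another. On simulated counts with 100 genes changed 2-fold, the test recovered 97 or more. The simulation gave all genes the same dispersion, changed only well-counted genes and had no sex or lane effect. It therefore does not give the recovery rate in these data. Peak counts and covered bases were compared by two-sided exact permutation tests, and starts by Fisher's exact test. Alternatives covered scaling (RLE), no filter, DESeq2 1.42.0, limma-voom (limma 3.58.1), a replicate block, lane, Xist status, left-out libraries, peak thresholds and window widths.

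The 8 genes and all gene lists were chosen with earlier results of these data known. All 8 are described, together with up to 3 called genes per list with the smallest p and up to 3 called against the list's direction, defining markers of other cell types, the 3 nearest profiles per gene and tested neighbours. Some genes that this rule takes are left out of the text. Positions and starts come from RefSeq GRCm38.p6.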

Additional observations from a re-analysis of the deposited data

Results flagged for a closer look

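In groups of 4 libraries, 62 sets of values were searched for a library far from the others, and 8 were found. The measure was the gap to its neighbour over the whole range. For normally distributed values chance gives such a gap in about 1 in 20 groups, a rate that does not hold for small peak counts. The single Lhx8 peak was found both by number and by bases. Among the 8 genes, Erbb4 was low in Vehicle 1, at 122.52 CPM against 169.55 to 174.89 CPM in the other Vehicle libraries. Lhx8 had 1 H3K9ac peak, covering 163 bases, in TSA 2 and 0 in the other TSA libraries. Npy had 2 H3K9ac peaks in TSA 1 and 1 in each other TSA library. Among the libraries, TSA 4 had 2326.9 CPM of Xist, against 0.30484 to 1.4685 CPM in the other TSA libraries, and 0.93782 CPM of the Y-linked genes, against 236.71 to 266.69 CPM. The H3K9ac list of Vehicle 4 held 22668 peaks, against 41331 to 43645 in the other Vehicle lists. The H3K9ac library of TSA 4 held 19920755 tags, against 15365856 to 16018415 in the other TSA libraries.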

How the results depend on the processing

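The falls of Cxcr4 and Erbb4 passed in all 17 other settings, the rises of Nkx2-1 and Lhx6 in 15 and that of Lhx8 in 9, and the direction of all 8 RNA changes held in each. With Xist status as a covariate 757 genes rose and 818 fell, 18 listed genes rose and 12 fell (37 and 44 without it), and of the 8 genes 0 rose, Nkx2-1 (log2 fold change 2.07), Lhx6 (0.27) and Lhx8 (2.21) losing their calls. With TSA 4 against Vehicle, added after seeing the data, 258 genes rose and 195 fell, 12 listed genes rose and 7 fell, and 1 of the 8 rose, Lhx6 (0.28) and Lhx8 (2.21) losing theirs. Without Vehicle 1 and 4, 1 of the 8 rose: Nkx2-1 (2.28, edgeR adjusted p = 0.0911) and Lhx8 (2.79, 0.0845) lost their calls and Maf passed (−0.45). With no filter (2.28, edgeR adjusted p = 0.111) and with lane (2.15) Lhx8 did not pass. Leaving out 1 library each gave log2 fold changes of 1.72 to 2.87 for Lhx8, −0.96 to −0.50 for Sst and −0.59 to −0.20 for Npy.

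Same-numbered libraries deviated together with correlations of 0.070 to 0.111. Differently numbered libraries were not compared, so these values cannot decide whether the numbers are pairs. The labels give no pairing, and the main fit took none. With a replicate block Lhx8 had 2.34 (edgeR adjusted p = 0.0675) and 2 of the 8 rose, and no other call among the 8 changed. The block lowered the SE of Nkx2-1 (0.20, against 0.45) and raised that of Lhx8 (0.68, against 0.62). Among all tested genes 2598 rose and 2744 fell with it, against 2314 and 2640 without it.

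For H3K9ac, leaving out 1 library each gave TSA minus Vehicle differences of 3.83 to 5.83 peaks and 1100 to 2506 bases at Lhx6, −0.0833 to 0.667 peaks at Sst, −0.5 to 0.167 peaks at Erbb4, and −104.9 to 138.4 bases at Npy, −71.0 to 533 at Cxcr4 and −150.7 to 354.8 at Maf. At a −log10 q of at least 5 the difference turned to −43.2 bases at Npy and −57.0 at Maf. As a share of all covered bases, added after seeing the data, it was −1.41 bases per Mb at Npy, −9.78 at Cxcr4, −7.62 at Maf and −78.7 at Erbb4. Where a call or direction changed, the cause was not tested. Raw counts were lowest for Lhx8, at 8 in Vehicle 2, and with 4 lists per group the exact tests cannot go below 0.0286.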
